A study of Mus musculus with 8 samples.

Results

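The 10 genes described here encode the core of the TSC and mTOR pathway: the TSC complex (Tsc1, Tsc2 and Tbc1d7), its GTPase target Rheb, 3 proteins of mTOR complex 1 (Mtor, Rptor and Mlst8) and 3 effectors of that complex in translation (Eif4ebp1, Eif4ebp2 and Rps6kb1). They were taken by gene symbol from a table of 56576 genes, and each of the 10 symbols named a single row. The table holds RNA recovered with epitope-tagged ribosomes from cortical synaptosomes, a preparation of pinched-off synaptic terminals, of mice at postnatal day 15. Controls were Lhx6-Cre;ErbB4+/+;Rpl22HA/HA (4 libraries, replicates 1, 3, 4 and 5) and Erbb4 conditional mutants were Lhx6-Cre;ErbB4F/F;Rpl22HA/HA (4 libraries, replicates 2, 3, 4 and 5). Cre and the tagged Rpl22 allele were therefore present in both genotypes, and only the state of Erbb4 set them apart. Lhx6-Cre is active in interneurons of the medial ganglionic eminence, both parvalbumin (PV+) and somatostatin (SST+) cells, so Erbb4 was targeted and ribosomes were tagged in more than PV+ interneurons.

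In cells generally, the TSC complex holds Rheb in its inactive, GDP-bound form. Akt, activated through receptor tyrosine kinases and PI3K, phosphorylates Tsc2 and relieves this brake, and GTP-bound Rheb then activates mTOR complex 1. The active complex phosphorylates S6 kinase and the 4E-BP proteins, which promotes cap-dependent translation, and loss of TSC1 or TSC2 causes tuberous sclerosis, a disorder with prominent neurological signs. The pathway is regulated largely by phosphorylation and nucleotide binding, and neither was measured in these libraries. They report only how much RNA was recovered with the tagged ribosomes.

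The libraries held between 51010687 and 80226984 reads on genes. Erbb4, the receptor tyrosine kinase deleted in the mutants, had 1640, 5377, 4306 and 3034 normalized counts in control replicates 1, 3, 4 and 5 and 1711, 1648, 1233 and 1048 in mutant replicates 2, 3, 4 and 5. The library labelled control replicate 1 was thus within the range of the mutants, below mutant replicates 2 and 3, and every member is given below with and without it. Which exon was deleted is not given in the sources used here, so the reads of Erbb4 may include reads from outside it. Summed markers of interneurons from the medial ganglionic eminence ran from 36753 to 130820 in controls and from 20166 to 62712 in mutants, with all 13 markers below 0 on the log2 fold change scale and 2 of them called lower. Of 7 markers of PV+ interneurons, Erbb4 among them, 5 were called lower, and all 6 markers of SST+ interneurons were below 0 (median log2 difference -1.26) with 0 called. None of the markers was at 0 in any library, and those of excitatory neurons (sums of 114050 to 152290 in controls and 109940 to 136770 in mutants) and oligodendrocytes (224890 to 659870 and 195280 to 280960) were present in all 8 libraries as well. The recovered RNA thus need not come only from tagged ribosomes, and how much of it did was not tested. All 6 oligodendrocyte markers were below 0, with 2 called lower, and 5 of 6 markers of endothelial and mural cells were above 0, with 2 called higher. Of 6 microglia markers 5 were below 0, and of 6 astrocyte markers 4, with 0 called in either list. The 8 excitatory neuron markers had 5 below 0 and 3 above, with 1 called lower and 1 higher. Of all genes tested, 3.17% were called lower and 3.98% higher. The members are broadly expressed genes, and the part that the cell mixture has in their values was not tested. In bulk RNA such as this, fewer cells of a type and less RNA per cell cannot be told apart. The study used 2 sequencing batches, but no label says which library belonged to which, so the part of batch in these values was not tested. Libraries of both genotypes differed by replicate number. Summed SST+ markers were 300070 and 542770 in control replicates 1 and 3 against 153900 and 60732 in control replicates 4 and 5. They were 211200 and 202290 in mutant replicates 2 and 3 against 51066 and 19133 in mutant replicates 4 and 5.

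Of the 10 members, 1 differed between genotypes at an unadjusted limma p of at most 0.05 with a fold change of at least 1.5. This was Tbc1d7, which was lower in Erbb4 conditional mutants. By the same rule 7.15% of the 31171 genes tested were called, 3.17% lower and 3.98% higher, so 1 call among 10 genes is near the background. No member had an adjusted p under 0.05 (limma with Benjamini-Hochberg adjustment, lowest value 0.58). Log2 fold changes, mutant minus control, were above 0 for 7 members and below 0 for 3, with a median of 0.31. Over all genes tested the median was 0.055, and 53.4% of genes were above 0. Without the library labelled control replicate 1 the median of the members was 0.093, with 6 above 0 and 4 below, and that of all genes was -0.0072. In no member did the 4 controls and 4 mutants form separate ranges, against 4.93% of all genes tested.

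**Figure D1:**
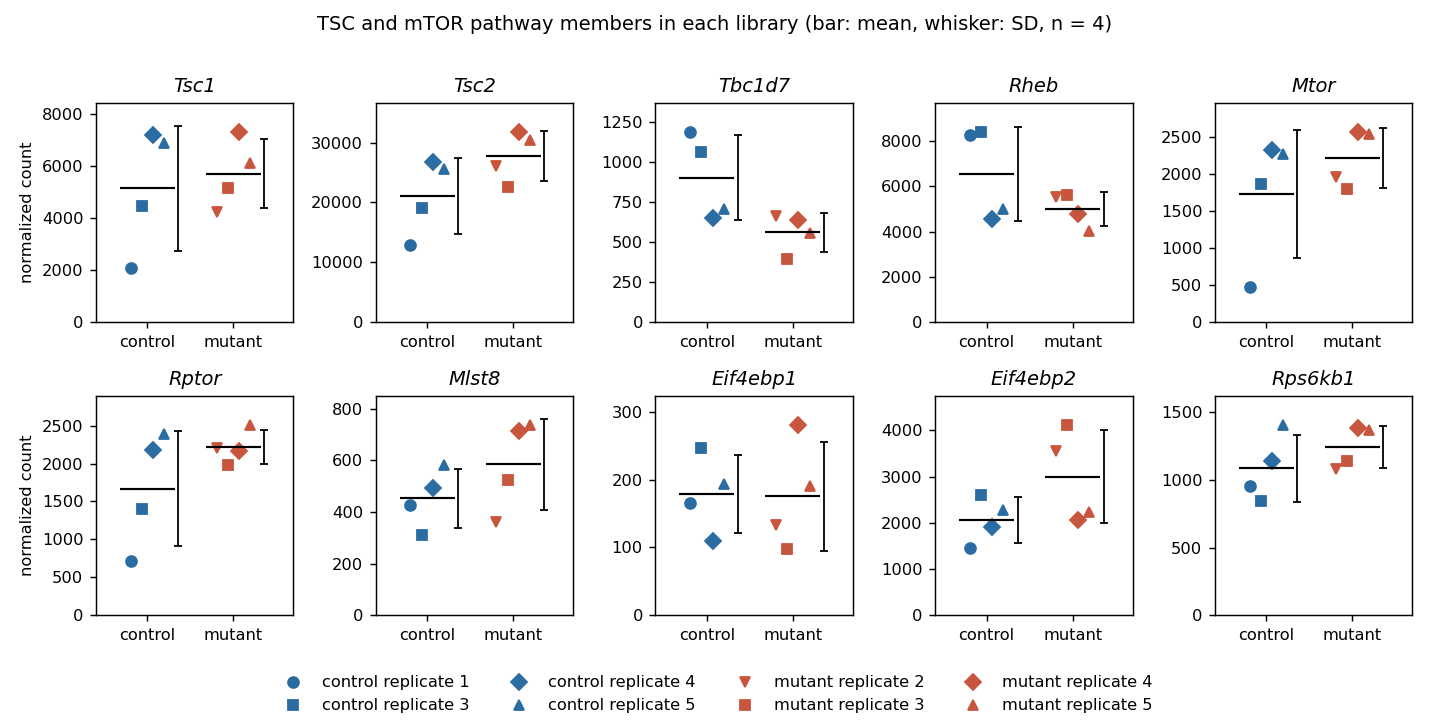
Normalized counts (linear axes starting at 0) of the 10 members in each of the 4 control libraries (blue) and 4 Erbb4 conditional mutant libraries (red), 1 symbol shape per replicate number, with the mean and SD in black. The ranges of the genotypes overlap in every panel, and the library labelled control replicate 1 (blue circle) is the lowest of all 8 for Tsc1, Tsc2, Mtor, Rptor and Eif4ebp2 and the highest for Tbc1d7.

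Tsc2, the subunit that carries the GAP domain acting on Rheb, lies on the minus strand of mm10 at chr17:24595816-24632629. It had 12894, 19106, 26763 and 25561 normalized counts in control replicates 1, 3, 4 and 5 and 26096, 22663, 31844 and 30481 in mutant replicates 2, 3, 4 and 5. Mutant replicates 4 and 5 were above every control, mutant replicates 2 and 3 were inside the control range, and the library labelled control replicate 1 was the lowest of the 8. Means were 21081 ± 6410 (SD, n = 4) in controls against 27771 ± 4196 (SD, n = 4) in mutants, a ratio of 1.32. On the log2 scale the difference was 0.44 (standard error 0.26, 95% interval -0.14 to 1.02), with a limma p of 0.12 and an adjusted p of 0.59. An exact permutation test of the means gave p = 0.143 (two-sided), where 4 libraries against 4 allow no p below 0.0286. Without the library labelled control replicate 1 the log2 difference was 0.23. The study asked whether Tsc2 acts downstream of ErbB4. Its evidence included lower phosphorylation of Tsc2, ribosomal protein S6 and 4E-BP1 in synaptosomes, but not in cytosolic fractions, of Erbb4 mutants. It also included co-immunoprecipitation of Tsc2 with ErbB4, and rescue of synapses in Erbb4 mutants by loss of a Tsc2 allele. The RNA levels given here are a different measure and do not address that question. At the level of RNA recovered with tagged ribosomes the interval of Tsc2 runs from a small decrease to about a doubling in mutants. No difference was shown within it.

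Some of the reads of Tsc2 cannot be assigned with certainty. Its row overlaps that of Pkd1, the polycystin-1 gene on the opposite strand, by 761 bases at their 3′ ends, of which 693 are exonic in both genes in GENCODE M21. Whether strand was used in the counting is not given in the sources used here. Pkd1 was more abundant than Tsc2, with 38352 ± 15528 (SD, n = 4) normalized counts in controls against 54585 ± 11678 (SD, n = 4) in mutants, and 17184 in the library labelled control replicate 1, its lowest value.

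Tsc1 (plus strand, chr2:28641233-28691172), which stabilises Tsc2 within the complex, had 2074, 4463, 7224 and 6879 normalized counts in the controls in the same order and 4234, 5178, 7340.1 and 6126 in the mutants. Every mutant value except the highest lay within the range of the controls. Means were 5160.0 ± 2396 (SD, n = 4) and 5719 ± 1328 (SD, n = 4), and the log2 difference was 0.27 (standard error 0.37, 95% interval -0.53 to 1.08, limma p = 0.47, adjusted p = 0.80, exact permutation p = 0.657). Its direction rested on 1 library, since the log2 difference was -0.11 without the library labelled control replicate 1.

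Tbc1d7 (minus strand, chr13:43151740-43171501), the third and smallest subunit of the complex, had 1189, 1059, 652 and 704 normalized counts in controls and 661, 392, 639 and 556 in mutants. The highest controls were replicates 1 and 3, while control replicate 4 was slightly below mutant replicate 2, so the ranges overlapped. Mean levels were 901 ± 264 (SD, n = 4) in controls against 562 ± 122 (SD, n = 4) in mutants, a ratio of 0.624. The log2 difference was -0.66 (standard error 0.28, 95% interval -1.29 to -0.04), with a limma p of 0.040 and an adjusted p of 0.58. An exact permutation test gave p = 0.0571 (two-sided). The call was lost on leaving out any of control replicates 1 and 3 or mutant replicates 3 and 5, with log2 differences of -0.51, -0.57, -0.50 and -0.67 respectively.

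Rheb (minus strand, chr5:24802823-24842609), the small GTPase through which the TSC complex acts, had 8282, 8424, 4552 and 4986 normalized counts in controls and 5554, 5637, 4779 and 4030 in mutants. Control replicates 1 and 3 stood above the other 6 libraries, and control replicates 4 and 5 were among the mutants. Its means were 6561 ± 2078 (SD, n = 4) and 4999.9 ± 753 (SD, n = 4), with a log2 difference of -0.35 (standard error 0.25, 95% interval -0.89 to 0.20, limma p = 0.19, adjusted p = 0.64, exact permutation p = 0.286). The log2 difference of Rheb was -0.22 without the library labelled control replicate 1.

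The kinase itself, Mtor (plus strand, chr4:148448582-148557684), had 479.9, 1871, 2333 and 2271 normalized counts in controls and 1960.5, 1796, 2579 and 2546 in mutants. The library labelled control replicate 1 held only 0.211 of the median of the other 3 controls, which lay among the mutants. Means were 1739 ± 864 (SD, n = 4) and 2220.5 ± 401 (SD, n = 4). The log2 difference of 0.57 (standard error 0.45, 95% interval -0.42 to 1.56, limma p = 0.23, adjusted p = 0.67, exact permutation p = 0.429) was 0.03 without that library.

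Rptor (plus strand, chr11:119602904-119899590) encodes Raptor, which brings substrates to the kinase. It had 721, 1398, 2181 and 2383 normalized counts in controls and 2207, 1985, 2159 and 2514 in mutants, so the mutants were close together while control replicates 1 and 3 were lower. Its means of 1671 ± 762 (SD, n = 4) and 2216 ± 220.0 (SD, n = 4) gave a log2 difference of 0.54 (standard error 0.34, 95% interval -0.20 to 1.29, limma p = 0.14, adjusted p = 0.60, exact permutation p = 0.286), which was 0.19 without the library labelled control replicate 1. Without control replicate 5 it was 0.76 and was called higher (adjusted p = 0.38 from limma), so the call of Rptor changed with which control was left out.

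Mlst8 (minus strand, chr17:24473550-24479079), the subunit that mTOR complexes 1 and 2 share, had 427, 309.99, 494 and 583 normalized counts in controls and 363, 525, 713 and 739 in mutants. Mutant replicates 4 and 5 were above every control and mutant replicate 2 was below 3 of them. Means were 453 ± 115 (SD, n = 4) and 585 ± 176 (SD, n = 4), a log2 difference of 0.35 (standard error 0.31, 95% interval -0.34 to 1.04, limma p = 0.29, adjusted p = 0.70, exact permutation p = 0.286). The log2 difference of Mlst8 was 0.33 without the library labelled control replicate 1. Of its exonic bases, 997 are shared with Bricd5 on the opposite strand, a gene with 72.7 ± 19.3 (SD, n = 4) normalized counts in controls against 85.3 ± 31.5 (SD, n = 4) in mutants, and reads from these bases cannot be assigned with certainty either.

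The effectors were Rps6kb1, which encodes S6 kinase 1, and the 4E-BP genes Eif4ebp1 and Eif4ebp2, whose proteins bind the cap-binding factor eIF4E until mTOR complex 1 phosphorylates them. Eif4ebp2 (minus strand, chr10:61428870-61452787), the main 4E-BP of the brain, had 1466, 2611, 1901 and 2278 normalized counts in controls and 3556, 4126, 2069 and 2246 in mutants. The mutants were split, with replicates 2 and 3 above every control and replicates 4 and 5 inside the control range. Mean levels were 2064 ± 493 (SD, n = 4) and 2999 ± 1002 (SD, n = 4), with a log2 difference of 0.51 (standard error 0.28, 95% interval -0.10 to 1.12, limma p = 0.092, adjusted p = 0.58, exact permutation p = 0.2). This was 0.36 without the library labelled control replicate 1, and 0.67 with a call as higher (adjusted p = 0.82 from limma) without mutant replicate 4.

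Eif4ebp1 (plus strand, chr8:27260327-27276668) was the member with the fewest normalized counts, 165, 246, 109 and 193 in controls and 133, 97.9, 281 and 191 in mutants. Its lowest library still held 106 reads. Means were 178 ± 57.2 (SD, n = 4) and 175 ± 80.0 (SD, n = 4), and the log2 difference of -0.07 (standard error 0.44, 95% interval -1.05 to 0.91, adjusted p = 0.96 from limma) had no stable sign. It was -0.09 without the library labelled control replicate 1. The interval spans a difference of about 2-fold in either direction, so a change of about that size in Eif4ebp1 is not excluded by these libraries.

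Rps6kb1 (minus strand, chr11:86498828-86544807) had 952, 845, 1142 and 1407 normalized counts in controls and 1076, 1140.1, 1384 and 1365 in mutants, all of the latter within the control range. Means of 1087 ± 247 (SD, n = 4) and 1242 ± 156 (SD, n = 4) gave the smallest standard error among the members, with a log2 difference of 0.21 (standard error 0.22, 95% interval -0.28 to 0.70, limma p = 0.36, adjusted p = 0.75, exact permutation p = 0.371). The log2 difference of Rps6kb1 was 0.16 without the library labelled control replicate 1. Its 3′ end shares 155 exonic bases with Rnft1 on the opposite strand, which had 1003 ± 205 (SD, n = 4) normalized counts in controls against 861 ± 375 (SD, n = 4) in mutants.

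**Figure D2:**
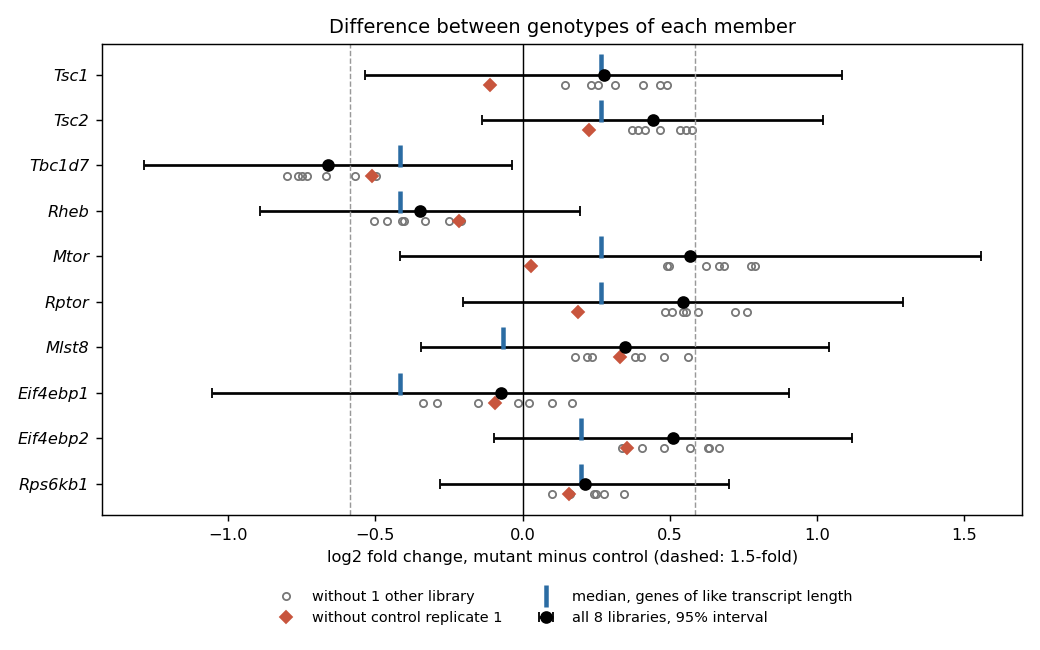
Log2 fold change of each member, mutant minus control (black points, with 95% intervals from limma, 4 libraries per genotype), with the values on leaving out 1 library at a time (grey circles, and red diamonds for the library labelled control replicate 1) and the median of all genes in the same class of transcript length (blue ticks). Only the interval of Tbc1d7 (-1.29 to -0.04) does not include 0, and without the library labelled control replicate 1 Tsc1 is at -0.11 and Mtor at 0.03.

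The values of the members were ordered in part by the length of their transcripts. The library labelled control replicate 1 held 0.211 of the median of the other controls for Mtor (longest GENCODE M21 coding transcript 8564 bases), 0.301 for Tsc1 (7702 bases), 0.331 for Rptor (6594 bases) and 0.504 for Tsc2 (6266 bases). For the short Rheb (1784 bases) and Tbc1d7 (1246 bases) it held 1.66 and 1.69 times that median, but for Eif4ebp1 (1997 bases), the third member of up to 2 kb, it held 0.855 of it. Genes at large were also ordered by length in this library. Among 12816 genes that averaged 100 normalized counts or more and had a transcript length matched by symbol, the median log2 ratio of that library to the other controls fell from 0.68 for transcripts of up to 2 kb (2721 genes) to -0.66 for those over 6 kb (1942 genes). Control replicate 3 also had a positive median for transcripts of up to 2 kb (0.50), and control replicates 4 and 5 had negative ones (-0.54 and -0.54). The mutants, each against the other mutants, divided in the same way over a smaller span. Mutant replicates 2 and 3 had medians of 0.098 and 0.1 up to 2 kb and -0.234 and -0.161 over 6 kb. Mutant replicates 4 and 5 had -0.059 and -0.11 up to 2 kb and 0.219 and 0.129 over 6 kb.

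The genotype difference of these genes had the same order, with medians of -0.42 up to 2 kb, -0.07 from 2 to 4 kb, 0.20 from 4 to 6 kb and 0.27 over 6 kb. Without the library labelled control replicate 1 the medians were -0.27, -0.04, 0.09 and 0.11. Against its own length class, Tsc2 was 0.18 higher on the log2 scale, Tsc1 0.01 higher, Mtor 0.31 higher and Rptor 0.28 higher. Without the library labelled control replicate 1 these differences from the class were 0.12 for Tsc2, -0.22 for Tsc1, -0.08 for Mtor and 0.08 for Rptor, so those of Tsc1 and Mtor changed sign. With all 8 libraries Rheb was 0.07 above the median of its class, although its log2 difference was below 0. Tbc1d7 was 0.25 below its class (0.24 without that library), in which 11.9% of the genes were called lower and 0.44% higher. In the class over 6 kb the calls ran the other way, with 1.29% lower and 9.94% higher. The members farthest above their class were Mlst8 (0.41), Eif4ebp1 (0.34) and Eif4ebp2 (0.31), where the standard errors of their own differences were 0.31, 0.44 and 0.28. Transcript length moved with the difference of the members, and its part in that difference was not tested.

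**Figure D3:**
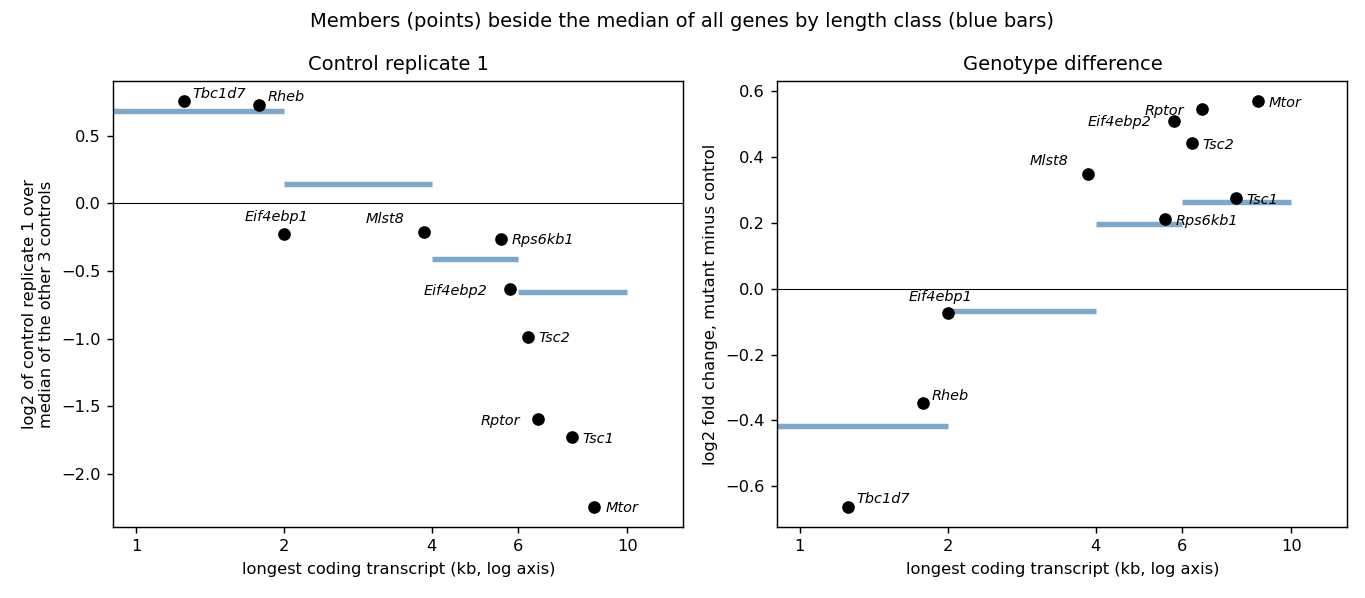
Members (points) by the length of the longest coding transcript in kb (log axis), beside the medians of all genes averaging 100 normalized counts or more in 4 length classes (blue bars, the longest class drawn to 10 kb). The left panel gives the log2 ratio of the library labelled control replicate 1 to the median of the other 3 controls, which falls from Tbc1d7 and Rheb to Mtor, and the right panel the log2 fold change, mutant minus control, which is below 0 for the 3 shortest members and above 0 for the other 7.

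Levels were compared between genes per kb of the longest coding transcript. The authors counted reads on constitutive regions, whose lengths are not given in the sources used here, so this scale is approximate. In controls the order by mean normalized count per kb was Rheb (3678 ± 1165, SD, n = 4), Tsc2 (3364 ± 1023, SD, n = 4), Tbc1d7 (723 ± 212, SD, n = 4), Tsc1 (670.0 ± 311, SD, n = 4), Eif4ebp2 (357 ± 85.3, SD, n = 4), Rptor (253 ± 116, SD, n = 4), Mtor (203 ± 101, SD, n = 4), Rps6kb1 (196 ± 44.6, SD, n = 4), Mlst8 (118 ± 29.8, SD, n = 4) and Eif4ebp1 (89.3 ± 28.6, SD, n = 4). Along this order the ranges of neighbours overlapped in controls except between Tsc2 and Tbc1d7 and between Rps6kb1 and Mlst8. On this scale the inhibitor Tsc2 and its target Rheb led the members, several times above the kinase and its partners. Reads of Pkd1 that may be counted for Tsc2, and the order by transcript length within libraries, were not taken out of these levels. In mutants Tsc2 (3617 to 5082 per kb) was above Rheb (2259 to 3160 per kb) in every library. In controls their ranges overlapped (2058 to 4271 for Tsc2 and 2552 to 4722 for Rheb). Tsc1 was also above Tbc1d7 in every mutant library (550 to 953 against 315 to 530.4 per kb). Control replicates 4 and 5 had the order of the mutants in both pairs, and control replicates 1 and 3 had the reverse.

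**Figure D4:**
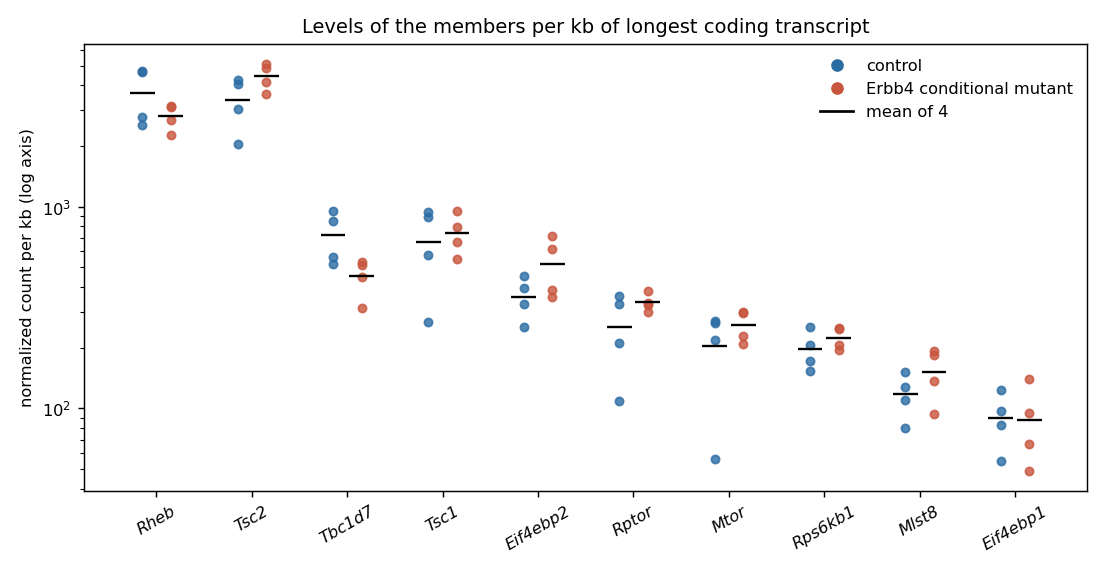
Normalized count per kb of longest coding transcript (log axis) of the 10 members in each control (blue) and Erbb4 conditional mutant library (red), ordered by the control mean, with means of 4 libraries in black. Rheb and Tsc2 lie at 2058 per kb or more in every library, and the other 8 members at 954 or less.

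Ratios within a library gave the balance of partners without the scale of the library. They keep the order by transcript length and any reads of Pkd1 counted for Tsc2. The log2 ratio of Rheb to Tsc2 normalized counts was -0.64, -1.18, -2.56 and -2.36 in control replicates 1, 3, 4 and 5 and -2.23, -2.01, -2.74 and -2.92 in mutant replicates 2, 3, 4 and 5. Control replicates 1 and 3 were above all mutants and control replicates 4 and 5 among them, and the means differed by -0.79, or by -0.44 without the library labelled control replicate 1. The log2 ratio of Tsc1 to Tsc2 ran from -2.64 to -1.89 in controls and from -2.62 to -2.12 in mutants. The lowest control value was that of the library labelled control replicate 1, and the other 3 controls (-2.10, -1.89 and -1.89) were above every mutant. The difference of the means was -0.17 with that library and -0.34 without it. Rptor to Mtor ran from -0.42 to 0.59 in controls and from -0.26 to 0.17 in mutants, with every mutant value inside the control range, and the difference of the means was -0.02 with the library labelled control replicate 1 and 0.16 without it. Eif4ebp1 to Eif4ebp2 was more spread, from -4.12 to -3.15 in controls and from -5.40 to -2.88 in mutants, with mutant replicates 2 and 3 lowest.

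Across the 8 libraries some members varied with Tsc2 and others against it, while Eif4ebp1 had r = 0.09 and Eif4ebp2 r = 0.30. Without control replicates 1 and 3 these were 0.81 and -0.70. Among the controls alone they were -0.30 and 0.56, and among the mutants alone 0.97 and -0.98, so neither kept its sign between genotypes. Of 45 pairs compared on log2 normalized counts, 27 had a Pearson r above 0. Exact permutation p-values, adjusted over the 45 pairs by the Benjamini-Hochberg method, were under 0.05 for 11 of the Pearson and 0 of the Spearman correlations. Tsc2 and Mtor had r = 0.93 over 8 libraries (exact p = 0.0005, adjusted p = 0.0246) and rho = 0.95 (exact p = 0.0011, adjusted p = 0.0513). Leaving out the 2 libraries farthest from the median of Tsc2, control replicates 1 and 3, gave r = 0.90.

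Tsc2 and Rptor had r = 0.95 (exact p = 0.0026, adjusted p = 0.0286) and rho = 0.67 (exact p = 0.0831, adjusted p = 0.197), and r = 0.52 without the same 2 libraries, on which this relation rests in large part. Tsc1 and Tsc2, which form a stable complex, had r = 0.90 (exact p = 0.0083, adjusted p = 0.0374) and rho = 0.76 (exact p = 0.0368, adjusted p = 0.165). This pair had r = 0.84 without the 2 libraries farthest from the median of Tsc1, control replicate 1 and mutant replicate 2. Without control replicate 1 alone it had r = 0.65. Tsc2 and Rheb ran in opposite directions, with r = -0.89 (exact p = 0.0026, adjusted p = 0.0286), rho = -0.88 (exact p = 0.0072, adjusted p = 0.12) and r = -0.73 without control replicates 1 and 3. Eif4ebp1 and Eif4ebp2 had r = -0.38 (exact p = 0.351, adjusted p = 0.494) and rho = -0.21 (exact p = 0.619, adjusted p = 0.733), and r = -0.26 without the 2 libraries farthest from the median of Eif4ebp1. The points of all these pairs share their library, its size factor and the order by transcript length given above, and replicates of a genotype are among them.

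Many other genes followed the members as closely. Among 19136 genes averaging 100 normalized counts or more, the 3 with the highest Pearson r over the 8 libraries were Asap1, Irag1 and Gm16576 for Tsc2 (r = 0.998, 0.996 and 0.993), Lamtor4, Edf1 and Mrpl51 for Rheb (r = 0.996, 0.995 and 0.994), and Kirrel, Ston1 and Trps1 for Mtor (r = 0.996, 0.996 and 0.994). After the mean of each genotype was removed, r was 0.9927 or more for all 9. An r above 0.9 was reached by 1031 genes for Tsc2, 1176 for Rheb and 985 for Mtor, so a profile of this kind was common in these libraries. Lamtor4, the closest gene to Rheb, encodes a subunit of Ragulator, the lysosomal platform of the pathway.

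Of 82 further pathway genes tested, 1 was called lower and 6 higher, or 8.54% against 7.15% of all genes tested. Their median log2 difference was 0.13, with 54 above 0 and 28 below. Among 17 of these genes with transcripts of up to 2 kb 13 were below 0, and among 23 over 6 kb 20 were above 0, which is the order of genes at large. The 6 calls as higher in the pathway became 0 without mutant replicate 4, 1 without mutant replicate 5 and 3 without either control replicate 1 or control replicate 3, and the calls as lower rose from 1 to 4 without either control replicate 4 or control replicate 5. None of the 7 called genes had an adjusted p under 0.05 (limma, all 0.58).

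PI3K and Akt carry signals from receptors such as ErbB4 to Tsc2. Of the 15 genes of this input tested, 3 were called higher and 0 lower, and 14 were above 0. Of all genes tested 3.98% were called higher and 53.4% were above 0, and of these 15 genes 10 have transcripts over 6 kb, the class in which 9.94% were called higher. Pik3ca, the catalytic p110α subunit of PI3K, had 4684 ± 1440 (SD, n = 4) normalized counts in controls against 7569 ± 2232 (SD, n = 4) in mutants, a log2 difference of 0.70. Gab1, a docking protein that links receptor tyrosine kinases to PI3K, had 2957 ± 1015 (SD, n = 4) and 5030 ± 1253 (SD, n = 4), a log2 difference of 0.81. Inpp4b, a phosphatase of the PI3K lipid products, had 2584 ± 982 (SD, n = 4) and 4093 ± 1122 (SD, n = 4), a log2 difference of 0.72. These 3 genes include activators and a negative regulator of the signal.

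Of 12 genes of the energy and stress input tested, which includes AMPK and GSK3, 0 were called. The most abundant, Cab39, a partner of the AMPK-activating kinase LKB1, had a log2 difference of 0.35 (adjusted p = 0.59 from limma). The amino acid input, built from the Rag GTPases, Ragulator and the GATOR proteins, had 1 gene called lower, 1 higher and 27 not called, with a median of -0.12. Rragb, a Rag GTPase, had 2457 ± 1178 (SD, n = 4) normalized counts in controls against 1169 ± 331 (SD, n = 4) in mutants, a log2 difference of -0.996. Sesn1, a leucine sensor that inhibits the pathway, had 2863 ± 425 (SD, n = 4) and 5074 ± 1786 (SD, n = 4), a log2 difference of 0.77, and all 4 mutants were above all controls. Of the 82 further pathway genes, 4 had all mutants above all controls and 1 all below, against 4.93% of all genes tested in either direction. The Ragulator genes Lamtor1, Lamtor2, Lamtor3, Lamtor4 and Lamtor5 had log2 differences of -0.53, -0.54, -0.22, -0.72 and -0.60, none of which passed the test. Their transcripts run from 668 to 1295 bases, within the class of up to 2 kb, where genes at large had a median of -0.42. Lamtor5 had 2699 and 1589 normalized counts in control replicates 1 and 3, and 625 and 622 in control replicates 4 and 5. Its mutants ran from 561 to 851. Rragc, the most abundant gene of this input, was at 0.19 (adjusted p = 0.70 from limma).

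Among 9 other subunits of the mTOR complexes, only Prr5l, which binds mTOR complex 2, was called, with 1046 ± 268 (SD, n = 4) normalized counts in controls against 1594 ± 365 (SD, n = 4) in mutants and a log2 difference of 0.62. Rictor, the defining subunit of complex 2 and the most abundant of these genes, was at 0.36 (adjusted p = 0.58 from limma). Of 17 further effectors, only Grb10 was called, an adaptor that mTOR complex 1 phosphorylates and that restrains insulin receptor signalling. It had 995 ± 353 (SD, n = 4) and 1675 ± 587 (SD, n = 4), a log2 difference of 0.77. Larp1, the most abundant of these effectors and a repressor of the translation of ribosomal protein mRNAs, was at 0.19 (adjusted p = 0.77 from limma). The tagged gene Rpl22 itself had 828 ± 371 (SD, n = 4) normalized counts in controls against 572 ± 129 (SD, n = 4) in mutants, a log2 difference of -0.47 (adjusted p = 0.63 from limma).

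**Figure D5:**
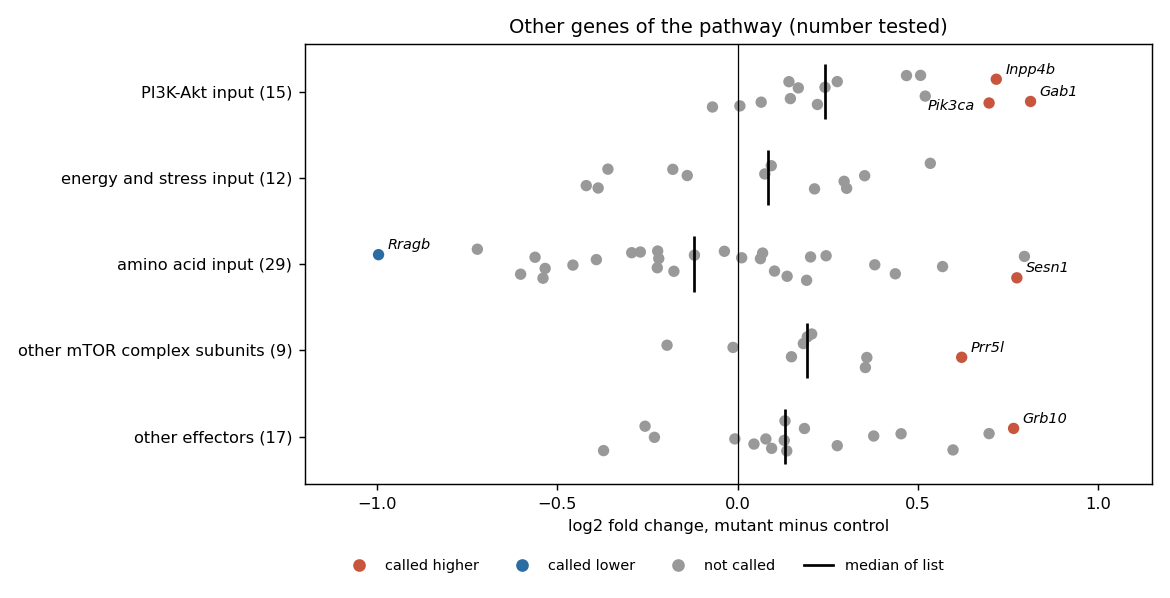
Log2 fold change, mutant minus control, of 82 further genes of the pathway in 5 lists (number tested in brackets), with called genes named and coloured (red higher, blue lower), the others grey, and the median of each list as a black line. Points are spread vertically for legibility. Medians run from -0.12 for the amino acid input to 0.24 for the PI3K and Akt input.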

How the data were processed

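RNA recovered with tagged ribosomes was used from 4 control and 4 Erbb4 conditional mutant libraries, grouped by the sample labels. All 8 columns of the table were matched to samples by name. The authors deposited a signal, normalized counts per gene and library: reads were aligned with STAR 2.4.0 to mm10, counted on the constitutive regions of Fast DB genes and divided by a DESeq2 size factor per library. The kit amplified full-length cDNA from low input, and how this bears on transcripts of different lengths was not tested. Dividing by the value of 1 read returned whole reads (tolerance 0.01) for 100% of the values, between 51010687 and 80226984 reads per library. Reads after amplification are not independent molecules, so these totals do not give the counting error.

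Here, log2(normalized count + 1) was fitted with limma 3.58.1 (lmFit, eBayes with trend; R 4.3.3) over 31171 genes with a mean of at least 10 in 1 genotype or more, with Benjamini-Hochberg adjustment. Fold changes on that scale understate those of low genes. Calls used the study's thresholds (unadjusted p of at most 0.05, fold of at least 1.5). Single members were also compared by exact permutation of the 8 libraries (scipy 1.17.1). edgeR 4.0.16 and DESeq2 1.42.0 on the recovered reads, other pseudocounts (0.1 and 10), filters, scalings, library weights, a replicate block and leaving out each library were alternatives. The procedure was tested on simulated data. Transcript lengths are from GENCODE M21, with 15175 of the tested genes matched by symbol. The members, lists and tests were chosen with earlier results of these data known. Named are the members, Erbb4, Rpl22, the called gene or genes and the most abundant gene of each list, the Lamtor genes and genes that overlap members, and the 3 genes most like Tsc2, Rheb and Mtor. The Lamtor genes were chosen after their values were seen. A gene that this rule names is not reported here. Strada and Eif4ebp3 had no row of their own and were left out of the 84 genes listed. P-values measure the spread between libraries. The study describes its replicates as samples from different brains and litters.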

Additional observations from a re-analysis of the deposited data

Results flagged for a closer look

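Mtor stood at 479.9 normalized counts in the library labelled control replicate 1, far below the 1871, 2271 and 2333 of the other controls. Its gap to the nearest control was 0.86 of the range of the 4 controls on the log2 scale, above Dixon's 95% critical value for 4 samples. It was the only such value among 30 groups of 4 libraries examined, where chance gives about 5%. The same library held fewer normalized counts of genes with transcripts over 6 kb in general (median log2 ratio -0.66 to the other controls), and the part of this in the value of Mtor was not tested.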

How the results depend on the processing

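Most values of single members kept their direction and their side of the thresholds. Eif4ebp1 changed sign, with a log2 difference of 0.416 with library weights, 0.0051 with a replicate block and -0.337 to 0.167 on leaving out 1 library, where control replicate 3 and mutant replicates 2 and 3 turned it. Tsc1 ran from -0.111 to 0.489 on leaving out 1 library. Calls of members as lower numbered 0 at an adjusted p under 0.05, with library weights and with a replicate block, and 0 to 1 on leaving out 1 library, and calls as higher numbered 0 to 1. Over all genes, calls as lower were 1573 with DESeq2, 1633 with library weights, 1719 with a replicate block, 14 at an adjusted p under 0.05 (1175 at an unadjusted p under 0.05) and 515 to 1977 on leaving out 1 library. Calls as higher were 1997 with library weights, 0 at an adjusted p under 0.05 (1421 at an unadjusted p under 0.05, and 32 by DESeq2 and 0 by edgeR at an adjusted p under 0.05) and 619 to 1792 on leaving out 1 library. Of the other pathway genes, 3 were called lower with DESeq2, 0 in either direction at an adjusted p under 0.05, and 1 to 4 lower and 0 to 7 higher on leaving out 1 library. Same-numbered libraries deviated together only weakly (correlations of 0.1, 0.0981 and 0.0823 for numbers 3, 4 and 5, and -0.0209 on average for other pairs), so the numbers were not taken to pair libraries, although 5 of 6 libraries with a shared number correlated best with their own number in the other genotype. With the block, the median of the members was 0.136 and Tbc1d7 was at -0.60 (adjusted p = 0.45 from limma), no longer called. Number 1 occurs only in controls and number 2 only in mutants, so the difference with the block rests on numbers 3, 4 and 5. Mtor was at 0.08 with the block and at 0.03 without the library labelled control replicate 1. The cause of these changes was not tested. With 4 libraries a genotype, the 95% intervals of most members include 0 and leave differences of either sign possible.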
